A study of Mus musculus with 7 samples.

Results

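The clustered protocadherin genes are 57 of the 21938 protein-coding genes on chromosomes 1 to 19, X and Y of the GENCODE annotation of the mouse mm10 assembly. They are the protein-coding genes whose symbol starts with Pcdha, Pcdhb or Pcdhg, a rule on names that uses no measured value, although the family was picked with earlier results of these data known. There are 14 Pcdha, 22 Pcdhb and 21 Pcdhg genes, all on the forward strand of chromosome 18.

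ATAC-seq, which marks DNA that the Tn5 transposase can enter, was performed in 7 mouse libraries to follow open chromatin during reprogramming of fibroblasts to pluripotency. The 6 fibroblast libraries came from mouse embryonic fibroblasts (MEFs) of a cross of 2 transgenic strains. The B6;129S4 parent carries a tetO-driven cassette of Pou5f1, Klf4, Sox2 and Myc (the reprogramming factors, together OKSM) in the Col1a1 locus, and the B6.Cg parent carries the doxycycline-dependent activator rtTA*M2 in Gt(ROSA)26Sor. Day 0 MEFs were untreated, days 1, 2, 3, 6 and 9 had doxycycline at 2 µg/mL, and the remaining library was from untreated ESCs of the Bruce-4 line. The genotype entry of the ESC library repeats that of the MEFs, and whether Bruce-4 cells carry these alleles was not tested. The MEFs were taken from embryos without head, heart and liver, the source embryos of each library are not given in the sources used here, and the dishes on doxycycline hold all cells, whether or not they were on the way to pluripotency. The study's methods name a change from MEF medium to ESC medium at around day 8, so the day 9 library differs from days 1 to 6 in medium as well as in time.

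Each time-point has 1 library, so no value below has a replicate and no difference between time-points was tested. The files hold peak positions only, and the read depth behind each peak is unknown. The libraries hold between 27074 peaks (ESCs) and 61241 peaks (day 0) after the authors had brought all samples to the same depth. A peak was found at the start of 9 of 10 fibroblast marker genes on day 0 and of 3 of 10 in ESCs, with Col1a1, Col1a2 and Fbn1 peaks in every MEF library and none in ESCs. The 10 pluripotency markers did not separate ESCs from MEFs, since 3 had a peak in ESCs (Pou5f1, Zfp42 and Tdgf1), 3 on day 0 (Pou5f1 and Tdgf1 among them) and 1 to 4 on the doxycycline days. Nanog, Esrrb, Lin28a and Dppa4 had none in any library. Sox2 had a peak on days 1 and 6 and none in ESCs. The cassette of the MEFs also holds Pou5f1 and Sox2, and whether its reads added to the peaks at these genes was not tested.

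Clustered protocadherins are cadherin-like adhesion proteins of the cell surface, best known in the brain, where each neuron uses its own small set of them and tells its own branches from those of other cells. Each Pcdha and Pcdhg variable exon has a promoter of its own and is spliced to constant exons shared by the whole cluster, whereas a Pcdhb gene is a single exon without constant exons. Most promoters are picked at random in a neuron, with CTCF and cohesin looping distant enhancers to the promoter in use and DNA methylation closing the others. The C-type genes at the ends of the Pcdha and Pcdhg clusters (Pcdhac1, Pcdhac2, Pcdhgc3, Pcdhgc4 and Pcdhgc5) are instead used constitutively in many neurons. Fibroblasts and ESCs are not the cells in which this choice is usually studied.

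In mm10 the Pcdha cluster lies at chr18:36930184-37187661 (257.5 kb), the Pcdhb cluster at chr18:37264938-37524479 (259.5 kb) and the Pcdhg cluster at chr18:37661793-37841873 (180.1 kb). Gaps of 77.3 kb and 137.3 kb separate them, and the locus from end to end covers 911.7 kb. GENCODE gives the symbol Pcdha11 to a pair of genes, and the one starting at chr18:37005203 is called Pcdha10 here, as in RefSeq. All 57 genes matched a RefSeq symbol. The transcription start site (TSS) of each variable exon was taken, and a gene was counted when a peak reached within 2 kb of it. These windows do not overlap, since neighbouring TSSs of a cluster are at least 4131 bp apart with a median spacing of 7.07 kb, so no peak was counted for more than 1 gene.

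Few of the 57 genes had a peak at their start in any library. Day 0 had 7 (12.3%, 95% exact Clopper-Pearson interval 5.08 to 23.7), against 57.6% of all protein-coding genes. Day 1 had 5 (8.77%, 2.91 to 19.3), against 53.5%, and day 2 only 2 (3.51%, 0.428 to 12.1), against 49.3%. Days 3 and 6 had 5 (8.77%) and 7 genes (12.3%), beside backgrounds of 54.1% and 55.2%. Day 9 had 2 genes (3.51%), against 51.1%, and ESCs had 7 (12.3%), against 48.2%. The whole interval for the protocadherins lay below the background in each of the 7 libraries. The intervals cover counting error alone and take genes as independent, which neighbours in a cluster may not be.

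CpG-rich promoters are often open and few protocadherin promoters are CpG-rich, so the same shares were taken among genes without a CpG-rich promoter (GC of at least 50% and a ratio of observed to expected CpG of at least 0.6 within 500 bp of the TSS). Only 3 of the 57 genes (5.26%) met this rule, namely Pcdhac2, Pcdhgc3 and Pcdhgc4, against 45.1% of all genes. Among the 12048 other protein-coding genes the share with a peak, from day 0 through day 9 to ESCs, was 31.6%, 26.4%, 22.5%, 27.1%, 28.0%, 23.6% and 20.8%. Among the 54 other protocadherins it was 9.26%, 3.70%, 1.85%, 3.70%, 7.41%, 0% (0 of 54, exact upper bound 6.60%) and 9.26% in the same order. The shares of the protocadherins were lower in every library. The margin was narrowest in ESCs, where the upper bound was 20.3% beside the 20.8% of the other genes.

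**Figure D1:**
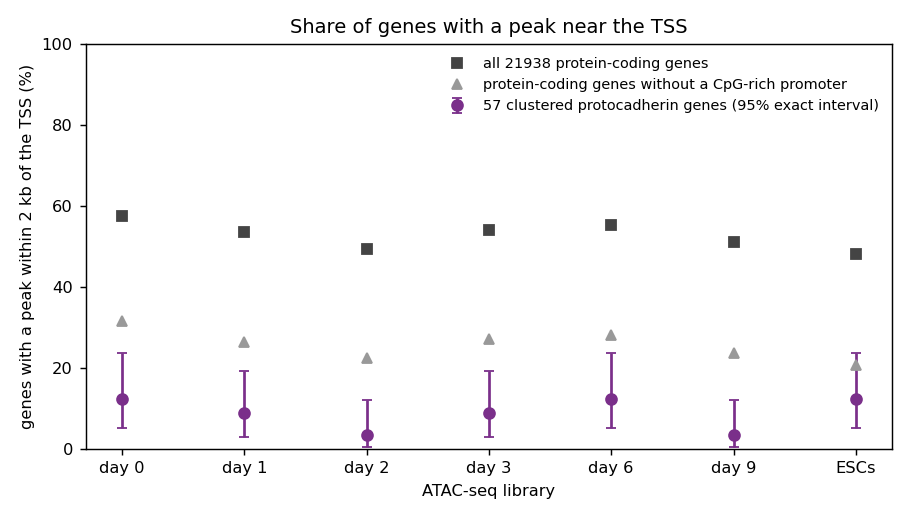
Share of genes with a peak within 2 kb of the TSS (percent, vertical axis) in each of the 7 libraries (horizontal axis). Circles are the 57 clustered protocadherin genes with exact 95% intervals, squares all 21938 protein-coding genes and triangles the 12048 genes without a CpG-rich promoter; the circles lie between 3.51% and 12.3% and the squares between 48.2% and 57.6%.

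Over all libraries 16 of the 57 genes (28.1%) had a peak at least once, against 63.7% of protein-coding genes, and 41 (71.9%) never had one, against 36.3%. Peaks in all 7 libraries were found at 1 gene (1.75%), against 40.4%. A peak in exactly 1 library was found at 9 genes (15.8%, 7.48 to 27.9), against 5.19%. The genes that had peaks thus often had them in a single list. Among the 9, the peaks of Pcdha7, Pcdha8, Pcdhb19, Pcdhb20 and Pcdhgb6 held 50-base stretches that occur more than once in the genome, described below. Such stretches made up 56.3%, 68.4%, 42.4%, 23.8% and 3.42% of them in that order. The excess over the background was not taken without these peaks. In all, 35 of the 399 pairs of a gene and a library (8.77%) held a peak. By cluster, 4 of 14 Pcdha, 3 of 22 Pcdhb and 9 of 21 Pcdhg genes had a peak at least once.

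**Figure D2:**
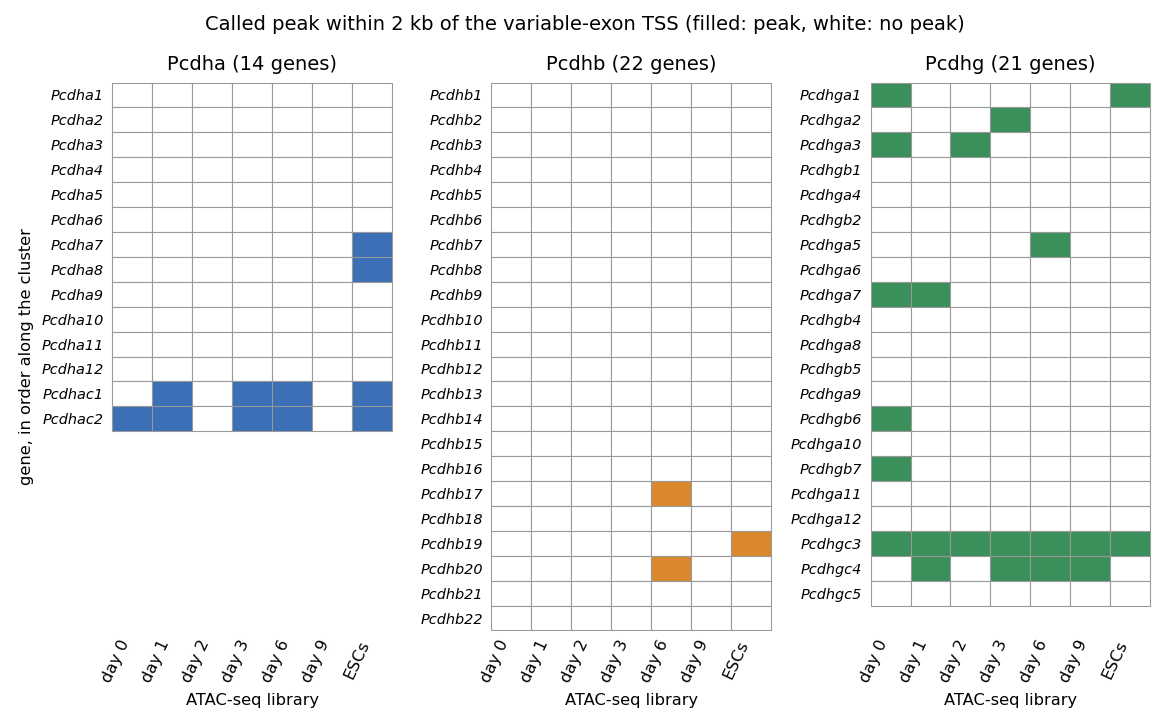
Genes of the 3 clusters in their order along the chromosome (rows) against the 7 libraries (columns); a filled cell is a peak within 2 kb of the variable-exon TSS and a white cell is none. Filled cells are gathered at the C-type genes at the lower end of the Pcdha and Pcdhg panels, and 41 of 57 rows are empty.

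The C-type genes carried most of the recurrent peaks. Of these 5 genes, 4 had a peak on each of days 1, 3 and 6, 3 in ESCs, 2 on days 0 and 9 and 1 on day 2. The other 52 genes together gave 5 with a peak on day 0, 4 in ESCs, 3 on day 6, 1 on each of days 1, 2 and 3 and 0 on day 9. Taken as pairs of gene and library, 20 of 35 C-type pairs (57.1%) and 15 of 364 other pairs (4.12%) held a peak. Over all protein-coding genes the share with a peak was 48.2% to 57.6% by library, so the C-type share was near that of all genes. A CpG-rich start was found at 3 of the 5 C-type genes and 0 of the other 52. Among all genes with such a start 81.6% to 89.3% had a peak. Of the C-type genes 4 of 5 had a peak in at least 4 libraries, and 0 of the 52 other genes reached 3 libraries. This division into C-type and other genes was made with the values known and is a description.

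Pcdhgc3, the first of the gamma C-type genes, was the gene with a peak in every library. Its TSS is at chr18:37806410 and its peak covered the TSS each time. The peak was 585 bp wide on day 0 (chr18:37806018-37806602) and split into peaks of 280 and 355 bp on day 1. Its widths from day 2 to day 9 were 658, 721, 646 and 627 bp, and it was 650 bp wide in ESCs. The start of this peak lay between 430 and 382 bp upstream of the TSS in the 7 libraries, so its position hardly moved from fibroblasts to ESCs. Pcdhgc3 had the highest GC content of the C-type starts (58.4%) and a CpG ratio of 0.798, and the antisense gene BC037039 overlaps the peak.

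Pcdhac2, the last variable exon of the Pcdha cluster, had peaks on days 0, 1, 3 and 6, of 627, 654, 478 and 518 bp. ESCs had a peak of 200 bp, and days 2 and 9 had none. In each of these libraries it lay inside the variable exon and not over the TSS. It began 107, 86, 165 and 520 bp after the TSS on those days, and 458 bp after it in ESCs.

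Pcdhac1, its neighbour, had peaks in 4 libraries (days 1, 3, 6, ESCs) and none on day 0. In that order they were 200, 200, 267 and 249 bp wide, narrower than those of Pcdhac2 on the 3 days but not in ESCs, and those of day 3 and ESCs covered the TSS at chr18:37090013. Both genes thus had a peak on days 1, 3 and 6 and in ESCs, and neither had one on day 2 or day 9. The day 2 and day 9 lists are also short, with 33174 and 33007 peaks, and the part of list length in these gaps was not tested.

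Pcdhgc4 had peaks on days 1, 3, 6 and 9 and none on day 0, on day 2 or in ESCs. The peaks of days 1, 3 and 9 were 460, 243 and 304 bp wide, and day 6 had a pair of peaks of 550 and 200 bp. Of the C-type genes it was the one with peaks on doxycycline days alone. Pcdhgc5, the last gamma variable exon, had no peak in any library; its start had a GC content of 52.7% but a CpG ratio of 0.233, the lowest of the 5 C-type genes.

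Among the gamma genes of the A and B subfamilies, 7 had peaks, and 5 of these 7 had one on day 0. The 5 were Pcdhga1, Pcdhga3, Pcdhga7, Pcdhgb6 and Pcdhgb7. Of these, Pcdhga1 had another in ESCs, Pcdhga3 on day 2 and Pcdhga7 on day 1, while Pcdhgb6 and Pcdhgb7 had none later. Pcdhga2 had a peak on day 3 alone and Pcdhga5 on day 6 alone. These 10 peaks were narrow, from 200 to 312 bp, where the smallest width in every list is 200 bp. Of the 10, 8 were centred inside the variable exon, between 114 and 178 bp after the TSS, and the remaining ones, Pcdhga1 on day 0 and Pcdhga2 on day 3, ended 113 and 132 bp before it. The peaks thus fell at nearly the same place in different exons, although different genes carried them in different libraries.

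The gene Pcdhgb8 is a polymorphic pseudogene in GENCODE and was left out by the rule, but its start was open more often than that of any gamma A or B gene counted. A peak of 200 to 329 bp lay within 200 bp of its TSS (chr18:37761801) on days 0, 1, 2, 3, 6 and 9, and ESCs had none within 44222 bp.

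The alpha genes other than Pcdhac1 and Pcdhac2 had no peak in any MEF library. In ESCs, Pcdha7 had a peak of 200 bp (chr18:36974457-36974656) and Pcdha8 a peak of 239 bp (chr18:36992945-36993183). They began 655 and 574 bp after their TSSs, deep in the variable exon, and thus lay farther from the TSS than the gamma A and B peaks did.

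The beta genes had no peak at all on days 0, 1, 2, 3 and 9. On day 6 there were 2 peaks of 200 bp in the whole Pcdhb cluster, 80 bp after the TSS of Pcdhb17 and 1930 bp after that of Pcdhb20. In ESCs there were 6, all inside variable exons and close to the end of the coding sequence. They lay in Pcdhb3 (263 bp, starting 459 bp before the coding end), Pcdhb14 (479 bp, 574 bp before it), Pcdhb17 (253 bp, 509 bp), Pcdhb18 (200 bp, 403 bp) and Pcdhb19 (200 and 270 bp, 731 and 451 bp). Of the 6, 5 lay more than 2 kb from the TSS, so only Pcdhb19 was counted as having a peak at its start. The peaks of the beta genes in ESCs were thus not at their promoters.

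**Figure D3:**
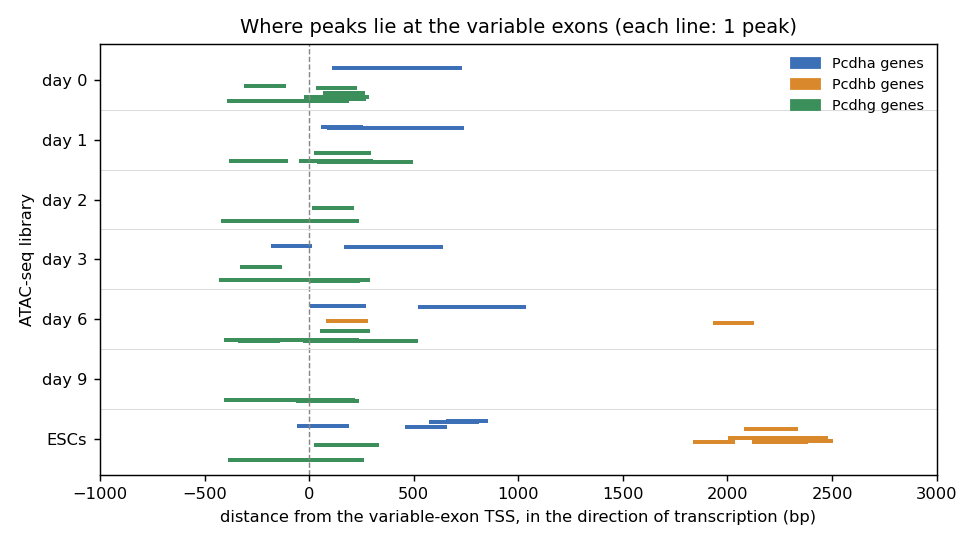
Peaks at the variable exons, each drawn as a line over its extent in bp from the TSS of its gene in the direction of transcription (horizontal axis), by library (vertical axis) and cluster (colour). Gamma A and B peaks sit within about the first 300 bp of the exon or just before it, whereas the 6 ESC peaks of the Pcdhb genes begin 1835 bp or more after the TSS.

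Variable exons within a cluster resemble each other in sequence. The authors mapped reads of 50 bp, so for every region the share of 50-base stretches that occur more than once in the mm10 genome was taken. Of the 11 regions of the locus with a peak in ESCs alone, 9 (81.8%) held such a stretch, with a median share of 31.1% and a highest of 68.4%. Of the 27 other regions of the locus, 3 (11.1%) held one. The share was 56.3% in the Pcdha7 peak and 68.4% in the Pcdha8 peak. In the beta exons it ran from 8.14% (Pcdhb14) to 43.6% (Pcdhb17) in ESCs, and was 23.8% in the day 6 peak of Pcdhb20. It was 0% in all regions of Pcdhac1, Pcdhac2, Pcdhgc3 and Pcdhgc4. Over the last 750 bp of the coding sequence the median beta gene had 7.77% repeated stretches, against 2.51% in the sequence before, with the opposite order in the genes from Pcdhb6 to Pcdhb12.

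The same excess was seen outside the locus. On the rest of chromosome 18, 151 of 311 regions with a peak in ESCs alone (48.6%) held a repeated 50-base stretch, against 335 of 3255 other regions (10.3%) and 73 of 918 regions with a peak on day 0 alone (7.95%). Without peaks in such stretches, 4 of 57 genes and not 7 had a peak in ESCs, and 6 and not 14 ESC peaks lay inside the clusters. The 4 genes left in ESCs were the C-type genes Pcdhac1, Pcdhac2 and Pcdhgc3, and Pcdhga1. How the authors treated reads that fit several places is not given in the sources used here, and the part of mapping in the ESC peaks was not tested.

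Between neighbouring time-points the set of genes with a peak changed at each step. Each step shares a library with the next, so the steps are not independent. The share of all protein-coding genes that changed at each step was not taken. The counts below therefore describe the lists and show no trait of the family. From day 0 to day 1, 3 genes had a peak at both times, 4 at day 0 alone (Pcdhga1, Pcdhga3, Pcdhgb6 and Pcdhgb7) and 2 at day 1 alone (Pcdhac1 and Pcdhgc4). From day 1 to day 2, 4 genes had a peak at day 1 alone (Pcdhac1, Pcdhac2, Pcdhga7 and Pcdhgc4) and 1 at day 2 alone. From day 2 to day 3, Pcdhac1, Pcdhac2 and Pcdhgc4 had peaks again, together with Pcdhga2. From day 3 to day 6, 4 genes had a peak at both times, the most of any step, and all of them were C-type genes. From day 6 to day 9, 5 had a peak at day 6 alone and 0 at day 9 alone, and from day 9 to ESCs 6 had one in ESCs alone.

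With the ends of the series compared, a peak on day 0 that ESCs lacked was found at 4 genes (7.02%, 1.95 to 17.0), against a background of 12.3%. These were Pcdhga3, Pcdhga7, Pcdhgb6 and Pcdhgb7, all of the gamma cluster. A peak in ESCs and not on day 0 was found at 4 genes (7.02%, 1.95 to 17.0), against 2.91%, and these were Pcdha7, Pcdha8, Pcdhac1 and Pcdhb19. A peak in ESCs alone was found at 3 genes (5.26%, 1.10 to 14.6), against 1.46%. Both ends had a peak at 3 genes (5.26%), Pcdhac2, Pcdhga1 and Pcdhgc3, against 45.3%. Peaks between the ends, on some doxycycline day but at neither end, were found at 5 genes (8.77%, 2.91 to 19.3), against 3.20%, namely Pcdhb17, Pcdhb20, Pcdhga2, Pcdhga5 and Pcdhgc4. Apart from the peaks shared by both ends, each of these intervals includes its background, so these shares could not be told from it.

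Over the whole locus, and not at the starts alone, peaks were spread unevenly. From day 0 through day 9 to ESCs, the Pcdhg cluster held 10, 8, 5, 9, 7, 5 and 4 peaks. The Pcdha cluster held 2, 3, 0, 3, 4, 2 and 4 peaks in the same order, and the Pcdhb cluster 0 except for 2 on day 6 and 6 in ESCs. Per Mb, the Pcdhg cluster had 55.5 peaks on day 0 and 22.2 in ESCs, beside 22.5 and 9.91 over the genome, while the Pcdhb cluster had none on day 0 and 23.1 in ESCs. With peaks in repeated stretches left out, the Pcdha, Pcdhb and Pcdhg clusters held 2, 0 and 4 peaks in ESCs and 2, 0 and 9 on day 0, so that the Pcdhb cluster was empty in both and the Pcdhg cluster held the most in both.

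**Figure D4:**
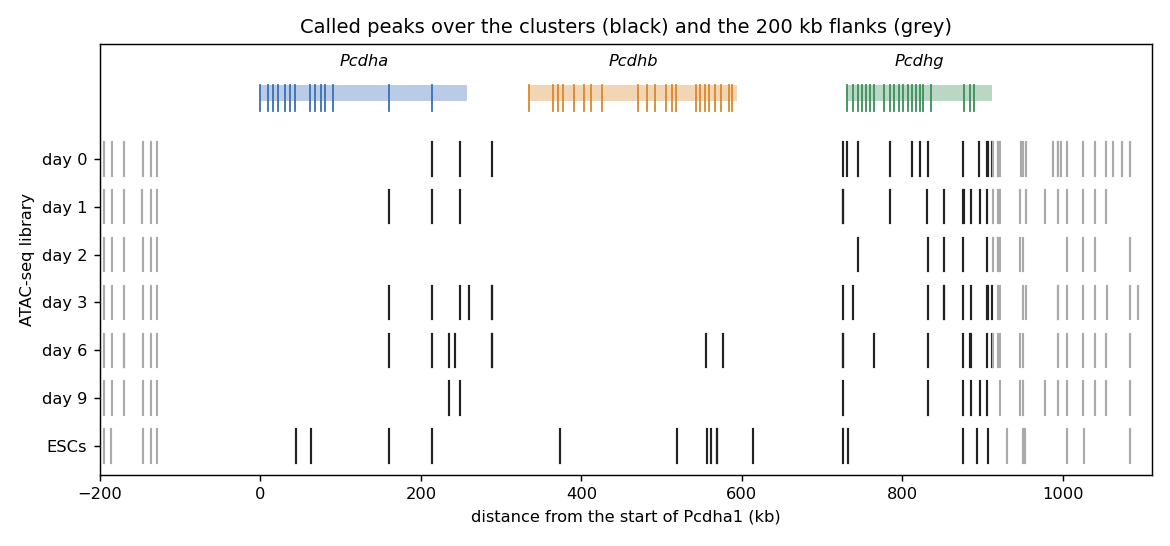
Peaks of each library (rows) along the locus and its 200 kb flanks, as distance in kb from the start of Pcdha1; black marks are peaks between the outer ends of the clusters and grey marks are peaks in the flanks, with the clusters and their variable-exon TSSs drawn above. The Pcdhb cluster is empty in 5 of the 7 libraries, and the marks at Pcdhgc3 and further towards the end of the Pcdhg cluster recur in every row.

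The locus was poorer in peaks than its flanks in every library. From day 0 through day 9 to ESCs it had 16.5, 14.3, 5.48, 17.5, 18.6, 8.77 and 17.5 peaks per Mb. The 200 kb flanks had 60.0, 42.5, 40.0, 45.0, 45.0, 40.0 and 27.5 per Mb in the same order. The whole genome had 22.5, 16.8, 12.2, 17.6, 16.4, 12.1 and 9.91, which lay within the exact 95% Poisson interval of the locus count (counting error only) in every MEF library. In ESCs the interval, 10.0 to 28.5 per Mb, lay just above the genome. With peaks in repeated stretches left out, the locus had 7.68 per Mb in ESCs (3.09 to 15.8), beside 6.67 on the rest of chromosome 18 under the same filter and 9.03 without it. The filter kept 7 of the 16 ESC peaks of the locus and 599 of 811 (73.9%) on the rest of the chromosome. The locus peaks were also narrower, with medians from 203 to 344 bp, against 364 to 394 bp over all peaks of a library.

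**Figure D5:**
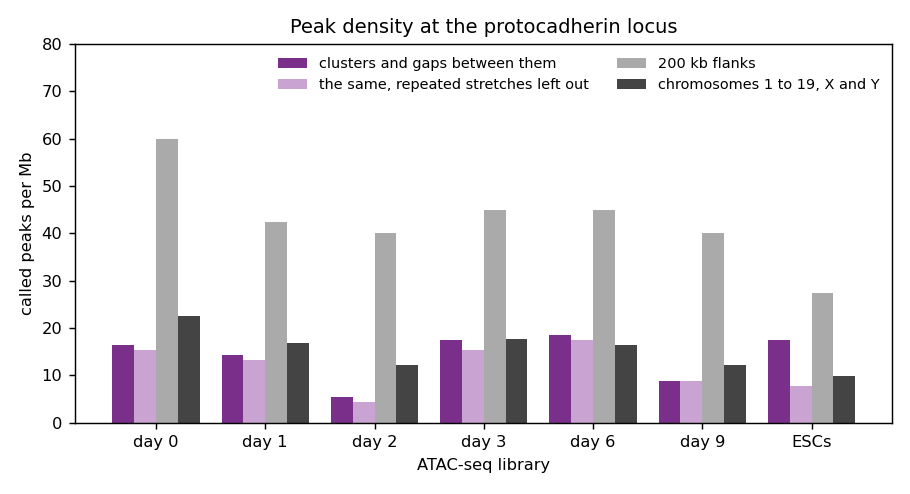
Peaks per Mb (vertical axis) in each library for the locus, for the locus without peaks in repeated stretches, for its 200 kb flanks and for the genome, where the flanks and genome keep all peaks. The flanks have the tallest bar in each of the 7 libraries, and leaving out repeated stretches lowers the locus most in ESCs, from 17.5 to 7.68.

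Most genes right beside the locus had a peak. Of 13 protein-coding genes in the flanks, 11 had a peak at their start in each MEF library and 9 in ESCs. A CpG-rich start was found at 9 of the 13 (69.2%), against 3 of the 57 protocadherins. By library, 81.6% to 89.3% of all genes with such a start had a peak, beside 48.2% to 57.6% of all protein-coding genes. The part of CpG content in this contrast was not tested. Zmat2, Hars and Hars2 before the locus, and Diaph1, Hdac3 and Rell2 after it, had a peak within 2 kb of the TSS in all 7 libraries. For Hdac3 and Rell2 the ESC peak was a separate one of 200 bp inside Rell2 (chr18:37956415-37956614). The region over their starts had a peak in every MEF library and none in ESCs. Wdr55 and Fchsd1 lacked one in ESCs alone, and Dnd1 and Arap3 had none. Slc25a2 and Taf7, which lie between the Pcdhb and Pcdhg clusters, had none, the nearest peaks being 16.6 and 11.2 kb away. The absence of peaks at these 2 starts, inside the locus but not of protocadherins, is a count of 2 genes only.

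The distance from a start to the nearest peak differed by cluster. The median Pcdhg gene was 5.34 kb from a peak on day 0 and 40.4 kb in ESCs. The median Pcdhb gene was 154.8 kb from a peak on day 0, 245.8 kb on day 2 and 13.8 kb in ESCs. The median Pcdha gene was 141.2 kb away on day 0 and 13.0 kb in ESCs. In ESCs these alpha and beta distances rest on the peaks in repeated stretches described above.

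Peaks of the 7 libraries merged into 38 regions in the locus, of which 22 (57.9%) had a peak in 1 library, and 26 in the flanks, of which 7 (26.9%) did. Over the genome 50.7% of 104248 regions had a peak in 1 library and 9.74% in all 7. Only 2 regions of the locus (5.26%) were open in all 7 libraries, against 6 (23.1%) in the flanks. All 8 regions of the Pcdhb cluster had a peak in 1 library, 6 in ESCs and 2 on day 6.

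Besides the start of Pcdhgc3, the region open in all 7 libraries was at chr18:37835350-37836900, between the last 2 constant exons of the Pcdhg cluster and within the noncoding gene Gm38182. At 1551 bp it was the widest region of the locus, and it lay 15837 bp after the TSS of Pcdhgc5. Its peak was 933, 734, 798 and 918 bp wide on days 1, 2, 6 and 9 and 308 bp wide in ESCs, and it was a pair of peaks on day 0 (304 and 667 bp) and on day 3 (665 and 257 bp). In ESCs it was the narrowest and lay in the far part of the region, from 37836306 to 37836613.

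Other regions away from the variable-exon starts recurred as well. A region at chr18:37655380-37656205, at the start of the noncoding gene 3222401L13Rik and 5588 bp before Pcdhga1, had a peak in every library but day 2. In the Pcdha cluster, a region between the constant exons at chr18:37178277-37178899, at the start of the noncoding gene Gm10544, had a peak on days 0, 1, 3 and 9, of 521, 476, 427 and 200 bp. A second one at chr18:37165386-37165840 was seen on days 6 and 9. In the gap between the Pcdha and Pcdhb clusters, regions at chr18:37218012-37218308 (days 0, 3 and 6) and chr18:37218361-37218619 (days 3 and 6) lay 46630 and 46319 bp before Pcdhb1. A region at chr18:37782087-37782835, between Pcdhga12 and Pcdhgc3, had peaks on days 1, 2 and 3 alone. The last constant exon of the Pcdhg cluster overlapped a region at chr18:37841715-37842140 on days 0, 3 and 6. None of these regions except that of Pcdhga1's neighbour 3222401L13Rik was open in ESCs.

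Promoter sequence was compared with the peaks. Within 500 bp of the TSS the median GC content was 44.9% over the 57 genes, 45.7% in Pcdha, 41.5% in Pcdhb and 47.1% in Pcdhg, against 54.9% over all genes. The median CpG ratio was 0.684 in Pcdha, 0.378 in Pcdhb and 0.594 in Pcdhg, and 0.564 over the 57 genes against 0.561 over all genes, so that Pcdha and Pcdhg lay above all genes in this ratio and Pcdhb below. The 16 genes with a peak had a median GC content of 46.8% and a CpG ratio of 0.618, and the 41 without had 44.2% and 0.488. All 3 genes with a CpG-rich start were among those with a peak. The 4 bases CGCT, searched on both strands because they form the core of an element shared by many of these promoters, were found in 57 of 57 windows and in 86.1% of all promoters, so all open and closed starts of the clusters held them. In 300 bp around the centre of the merged regions they were found in 27 of 38 regions of the locus (71.1%), against 47.7% of all regions. The CTCF core consensus, searched on both strands with no mismatch allowed at its fixed bases, was found in 1 window (1.75%, Pcdhac2), against 7.0% of all promoters. In the same 300 bp windows it was found in 1 of 38 (2.63%), the Pcdha8 region, against 4.89% of all regions. Sites that differ from the consensus at a fixed base were not counted, so a window without a match may still hold a CTCF site. A match or its absence says nothing of whether CTCF was bound.

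Other genes of the cadherin family had peaks more often than the clustered ones, at shares on both sides of those of all genes given above. Of 12 non-clustered protocadherins, which each have a promoter outside these clusters, 9 had a peak on day 0, 8 or 9 on the doxycycline days and 6 in ESCs. Pcdh8, Pcdh9, Pcdh10, Pcdh17 and Pcdh19 had one in all 7 libraries, and Pcdh12 and Pcdh15 in none. Pcdh1 and Pcdh18 had one in every MEF library and none in ESCs. Of 10 cadherins with a Cdh symbol, 4 had a peak at the start on day 0 and 6 in ESCs. On the doxycycline days 5, 4, 4, 5 and 3 of them had one, in order. Cdh2 (N-cadherin) had one in all libraries and Cdh1 (E-cadherin) in ESCs alone.

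Genes for factors known to act on the clusters were mostly open. Of 14, 13 had a peak on day 0, 12 on each doxycycline day and 9 in ESCs. Over all protein-coding genes the share was 57.6% on day 0, 49.3% to 55.2% on the doxycycline days and 48.2% in ESCs. Ctcf and the cohesin genes Rad21, Smc1a, Smc3 and Stag2 had one in all 7 libraries, as did Wapl, which releases cohesin, and Smchd1 and Setdb1, which act in silencing. Nipbl, the cohesin loader, the DNA methyltransferase genes Dnmt3a and Dnmt3b, and Rest had one in every MEF library and none in ESCs. Stag1 had one in ESCs alone and the DNA methyltransferase gene Dnmt1 on day 0 alone. Each gene was scored at the outermost start of its protein-coding transcripts, which need not be its main promoter. Of 9 genes for partners of the proteins, 7 or 8 had a peak in each MEF library and all 9 in ESCs. Of 8 neuronal and glial markers 5 had a peak in each MEF library and 4 in ESCs, close to the shares of all genes. Tubb3, Map2, Syt1 and Elavl4 had one in all 7 libraries and Rbfox3, Sox10 and Gfap in none, and their part in the protocadherin peaks was not tested.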

How the data were processed

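ATAC-seq was performed in 7 libraries, 1 per time-point. Per the study's methods, the authors cut paired-end reads to 50 bp (Trimmomatic), aligned them to mm10 (Bowtie2), used Samtools fixmate, removed duplicates and downsampled to a common depth with Picard, and called peaks per library with MACS2 (no model). The deposited files hold peak positions (chromosome, start, end) with no score, signal or count, so depth is unknown and no test between libraries could be made.

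Peaks were counted within 2 kb of the variable-exon TSS (GENCODE M21), over the clusters and over 200 kb flanks, with an overlap of at least 1 bp. For genes outside the clusters the TSS was the outermost start of their protein-coding transcripts. Positions count from 1. Peaks of all libraries that touched or overlapped were merged. Shares carry exact Clopper-Pearson 95% intervals. Overlaps were tested on simulated data (100% of planted overlaps found) and checked against BEDTools 2.31.1, with 0 of 399 windows differing. Sequence features came from the mm10 sequence. Python 3.11.15, numpy 2.4.6, scipy 1.17.1 and matplotlib 3.10.9 were used. Genes were named when they had a peak in at least 1 library or belonged to a listed group. The members and lists were chosen with earlier results of these data known. Alternatives were other windows, flanks, widths, overlaps and numbers of peaks. Sequences of the members are not reported here.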

Additional observations from a re-analysis of the deposited data

How the results depend on the processing

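Of 143 alternative values, 84 stayed within the limits set for a change and 59 moved. The values are single counts or shares without a direction, so a reversal was not defined for them. The number of genes with a peak kept its value range with the 5′ end of the gene record as TSS, with the centre of the peak within 2 kb, with each peak given to its nearest TSS and with a 1 kb window. With peaks of at least 300 bp it was 3, 3, 1, 2 and 3 on days 0, 1, 2, 3 and 6 and 2 in ESCs. With the 27074 widest peaks of each library it was 2, 3, 1, 2 and 3 on days 0, 1, 2, 3 and 6. ESCs kept their 7, the most, because 27074 is the length of the whole ESC list. The setting drops the narrowest peaks of the other libraries alone, so it cannot rank ESCs against them. A 5 kb window gave 11, 4 and 15 for day 6, day 9 and ESCs, and a 500 bp window 4 in ESCs. Dropping peaks in repeated stretches, an alternative chosen after seeing the data, gave 4 in ESCs and 6 ESC peaks inside the clusters. Peaks inside the clusters numbered 7, 6, 2, 5 and 5 on days 0, 1, 2, 3 and 6 and 5 in ESCs at 300 bp or more, and 4, 6, 2, 5 and 5 on those days among the widest peaks. From the first to the last TSS they numbered 6, 7, 7, 8 and 3 on days 0, 1, 3, 6 and 9. With flanks of 500 kb the peaks numbered 71, 50, 39, 61, 58, 45 and 41 from day 0 to ESCs, and with 100 kb 12 on day 2 and 14 on day 9. With the 200 kb flanks they numbered 23, 13, 18 and 20 on days 0, 2, 3 and 6 and 13 in ESCs at 300 bp or more, and 19, 18 and 21 on days 0, 3 and 6 among the widest. Counting regions as shared at 50% of both peaks gave 51 regions inside the clusters, against 32. With the libraries of days 0, 1, 3 and 6 and ESCs alone, genes changed state 20 times between neighbours, against 32. Among CpG-rich promoters alone the background was 89.3%, 86.6%, 82.0%, 86.9%, 88.3%, 84.5% and 81.6% from day 0 to ESCs. The width setting leaves fewer peaks by construction, and so does the number setting in every library but ESCs. Other windows, flanks and spans, a stricter overlap and fewer steps between neighbours also change the counts by construction. The cause of the shifts among CpG-rich promoters and without repeated stretches was not tested.

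No paired analysis was possible because no time-point has more than 1 library, and leaving out a replicate was not an option either. A stricter peak threshold was not run, since the lists used here carry no score. Depth is unknown, and the short lists of days 2 and 9 and of ESCs limit what their gaps show.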
